A study of Mus musculus with 8 samples.

Results

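Krüppel-like factors and the genes that let T cells enter and leave lymph nodes were followed in mouse CD8+ T cells primed by different dendritic cells (DC). The set held 7 genes: the transcription factors Klf2, Klf3, Klf6 and Klf13, the lipid receptors S1pr1 and S1pr4, and the chemokine receptor Ccr7. They were chosen by symbol, with earlier results of these data known. All 7 were found, once each, among the 43432 genes of the table. The T cells were OT-I cells, whose transgenic T cell receptor sees an ovalbumin peptide, on the C57BL/6 strain. They had spent 72 hours in plate culture with antigen-bearing DC of 1 subset, and only cells that had divided were sorted for RNA sequencing. The DC partner was the only stated difference between groups: migratory CD103+ DC (CD103 DC group, 3 libraries), CD8a+ DC resident in the lymph node (CD8a DC group, 3 libraries) or migratory CD11b+ DC (CD11b DC group, 2 libraries, numbered 2 and 3). T cells without DC were not analysed here. The labels give no age, name no antigen, and do not tell whether replicates are separate cultures or animals, so the p-values measure the spread between these libraries, which may be technical. Exit from a lymph node was not measured in culture; the values are transcript levels.

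In T cells, the zinc finger protein KLF2 keeps resting cells in circulation. It is driven by FOXO1, switches on S1pr1, and is shut down by T cell receptor and cytokine signals. S1PR1 senses sphingosine 1-phosphate (S1P), which is rich in blood and lymph and poor in tissue, and draws T cells out of the node; CD69, a surface protein of newly activated cells, binds S1PR1 and removes it from the membrane. CCR7 acts the other way: its ligands CCL19 and CCL21 hold T cells in the T cell zone. KLF3 is mainly a repressor that binds the same CACCC type of sequence as KLF2, KLF6 is broadly expressed, and KLF13 is known for driving Ccl5 late after T cell activation.

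The promoters of the 3 genes that passed the test in at least 1 comparison are shown first. They differ in matches to motifs that Krüppel-like factors and the MEF2 regulators of Klf2 bind. A link between these motifs and the calls was not tested. The sequences are RefSeq entries on GRCm38.p6, which held an entry for 5 of the 7 genes and none for S1pr1 and Ccr7. Bases upstream of the gene are printed 5′ to 3′ on the gene's own strand. Capitals mark 3 motifs, searched on both strands. The Krüppel-like factor motif is CACCC, read on the other strand as GGGTG. The GC box is GGGCGG, read as CCGCCC. The MEF2 motif is CTAAATT, read as AATTTAG.
Klf2, chr8:72318812-72319032, plus strand: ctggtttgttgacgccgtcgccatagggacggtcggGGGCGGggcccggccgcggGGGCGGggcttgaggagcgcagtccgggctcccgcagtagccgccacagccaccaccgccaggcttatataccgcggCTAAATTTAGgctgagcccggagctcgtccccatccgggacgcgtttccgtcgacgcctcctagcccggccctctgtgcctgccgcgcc
Klf3, chr5:64803271-64803387, plus strand: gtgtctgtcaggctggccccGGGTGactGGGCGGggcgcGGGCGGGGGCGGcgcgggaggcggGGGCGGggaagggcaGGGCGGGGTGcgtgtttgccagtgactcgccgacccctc
S1pr4, chr10:81500138-81500387, minus strand: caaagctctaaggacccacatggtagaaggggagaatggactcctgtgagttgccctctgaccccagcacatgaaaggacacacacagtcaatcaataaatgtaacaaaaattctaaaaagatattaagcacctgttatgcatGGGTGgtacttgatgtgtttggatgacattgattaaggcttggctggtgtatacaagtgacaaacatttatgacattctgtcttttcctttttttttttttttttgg

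The Klf2 stretch of 221 bases held the MEF2 motif on both strands, as 2 matches that overlap to form 1 palindrome whose first base is at position -89 (counting back from -1 at the last printed base). At least 1 match occurred in 2.11% of 32851 promoters cut to the same length. Klf2 also held 2 GC boxes (at least 1 in 28.7% of promoters) and no CACCC (48.0%). The Klf3 stretch of 117 bases was 79.5% G and C and held 5 GC boxes (at least 1 in 12.4%) and 2 CACCC matches (at least 1 in 28.4%), 1 of which overlapped a GC box. The S1pr4 stretch of 250 bases was only 38.8% G and C, with 1 CACCC match (52.0%) and no GC box (32.7%). The forkhead motif that FOXO1 can bind, GTAAACA, was on neither strand of the 3 stretches. Klf6 and Klf13, which passed in no comparison, held such matches too. The Klf6 stretch of 243 bases had 1 GC box (31.8%) and no CACCC (51.1%). The Klf13 stretch of 250 bases had 3 GC boxes (at least 1 in 32.7%) and 1 CACCC match (52.0%). These matches describe letters in these windows and are not evidence of binding.

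Depth was 16293042 to 21973391 recovered reads per library, and the members drew 3618 (Klf2) to 48659 (Ccr7) reads over all 8 libraries. The summed level of 14 T cell identity genes was alike in range, at 150800 to 158400 normalized counts in the CD103 DC group, 138100 to 158900 in the CD8a DC group and 150800 to 165500 in the CD11b DC group, with no gene at 0. A normalized count is the gene's reads divided by the size factor of its library. On the first principal component, which held 20.9% of variance, CD8a DC replicate 2 lay far from the rest (138.3, with the other libraries at -44.0 to 26.1). Sums of some markers listed for other cells, and mitochondrial transcripts, also differed between the groups. Which cells these transcripts came from was not tested. The 20 DC markers summed to 6617 to 7219 in the CD103 DC group, 1644 to 4676 in the CD8a DC group and 6375 to 8972 in the CD11b DC group. Ccl22 was the largest part of the sum in each group, with means of 2839.8, 1171 and 5021.4 in that order. H2-Ab1 was lowest in the CD103 DC group, with means of 45.8, 59.1 and 106.2. Cd209a was at 0 in every library; Itgax in the CD103 DC group, Sirpa in the CD8a DC group and Clec9a in the CD11b DC group were also at 0. Of 19 DC markers tested, 4 rose in the CD103 DC group against the CD8a DC group (Cd74, Ccl22, H2-Aa and Flt3). Against the CD11b DC group 1 rose (H2-Aa) and 1 fell (Sirpa). In the CD8a DC group 3 fell against the CD11b DC group (Ccl22, Ccl17 and Sirpa). Of all genes, 1.44%, 0.332% and 1.97% passed in these comparisons in either direction. The log2 fold change of CD103 DC over CD8a DC was above 0 for 15 of the 19 markers and below 0 for 4. The 4 listed markers of helper and regulatory T cells came to 531.5 to 617.2 in the CD103 DC group, 147.8 to 258.4 in the CD8a DC group and 192.4 to 238.3 in the CD11b DC group. B cell markers, mostly Ighm, summed to 19340 to 21820, 18910 to 25660 and 22200 to 22960 in the same order, with Pax5 at 0 throughout. Macrophage and monocyte markers summed to 1062 to 1367, 732.6 to 1443 and 1660 to 2250, with Adgre1, Mertk, Cd14 and Fcgr1 at 0. Of the other marker genes, Cd2 and Zbtb7b rose in the CD103 DC group against the CD8a DC group, Ighd rose there against both other groups, and mt-Nd1 was higher in the CD8a DC group than in either other group, passing both times. The share of reads from mitochondrially encoded genes was 6.69% to 7.72% in the CD103 DC group, 9.12% to 11.8% in the CD8a DC group and 7.02% to 7.20% in the CD11b DC group. The part of these values in the results below was not tested; in bulk RNA, fewer cells of a type and less RNA per cell cannot be told apart.

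T cells primed by CD103+ DC held the lowest Klf2, S1pr1 and S1pr4, with no overlap between their libraries and those of either other group. Of all genes tested, 2.50% showed that order without overlap. Against the CD8a DC group, Klf2 and S1pr4 fell in the CD103 DC group; against the CD11b DC group, Klf3 fell. The test was limma-trend on log2(normalized count + 1), on whose scale fold changes are given; passing meant a p under 0.05 after Benjamini-Hochberg adjustment over all 18971 genes tested. Klf6, Klf13 and Ccr7 passed in no comparison.

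**Figure D1:**
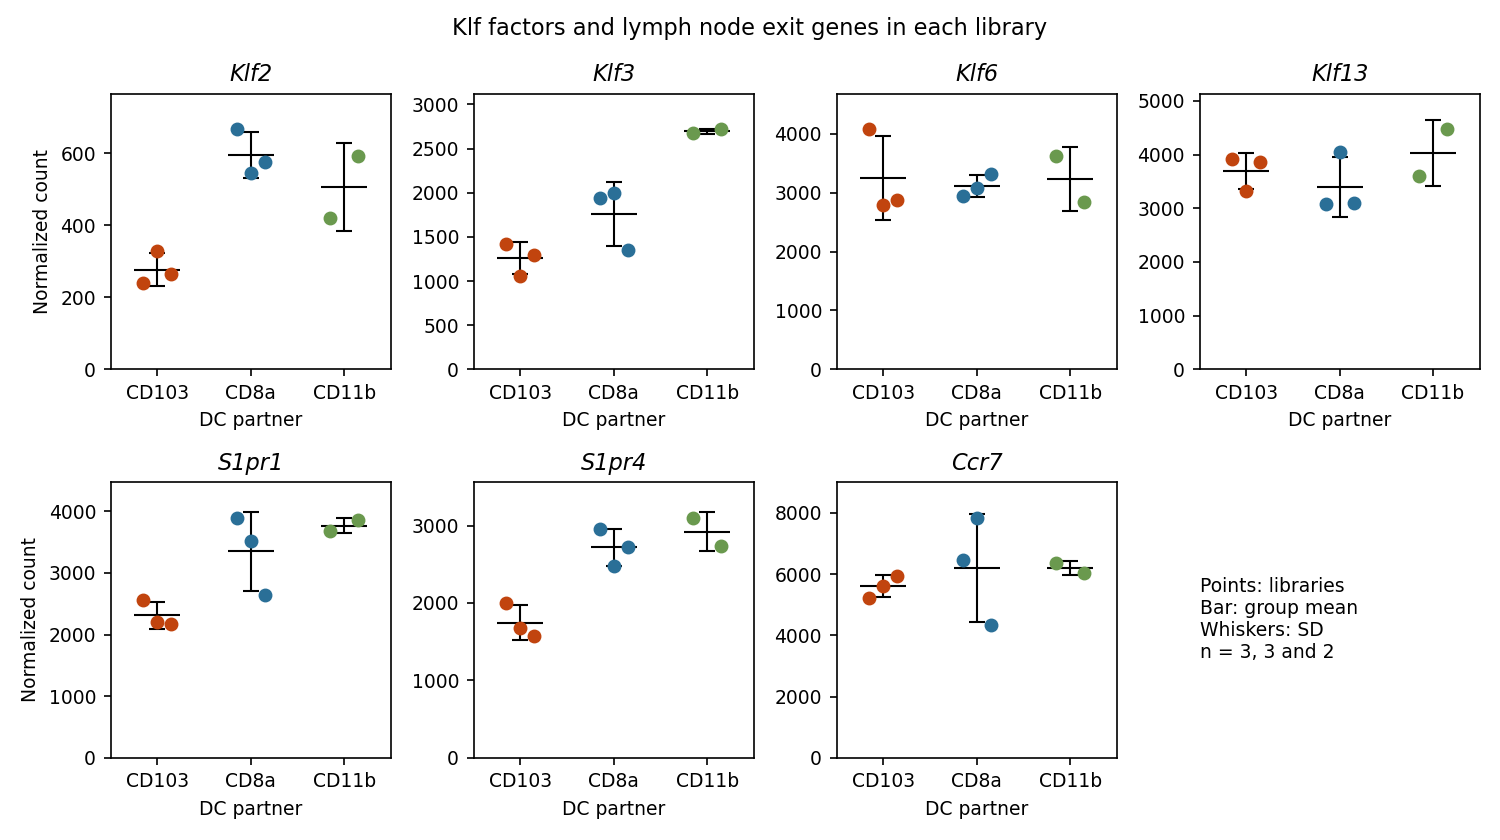
Normalized count (linear axis from 0) of each of the 7 genes against DC partner; points are libraries, the long bar is the group mean and the whiskers are the SD (n = 3, 3 and 2). The 3 CD103 DC libraries lie below all other libraries for Klf2, S1pr1 and S1pr4, while Klf6 and Klf13 overlap across groups and Ccr7 spreads from 4331.5 to 7828.6 within the CD8a DC group.

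Klf2 (ENSMUSG00000055148) lies on chromosome 8, 72319033 to 72321656, plus strand (GRCm38). Its normalized counts were 238.7, 327.9 and 264.7 in the CD103 DC group, 665.8, 544.0 and 574.8 in the CD8a DC group, and 419.3 and 593.5 in the CD11b DC group. Every CD103 DC library was thus below every other library, whereas the CD11b DC pair reached into the CD8a DC range. The means were 277.1 ± 45.9 (SD, n = 3), 594.87 ± 63.3 (n = 3) and 506.4 ± 123.18 (n = 2). Klf2 was 2.15-fold lower in the CD103 DC group than in the CD8a DC group, with a log2 fold change of -1.11 (SE 0.23, 95% interval -1.60 to -0.61, limma adjusted p = 0.0307). Against the CD11b DC group the log2 fold change was -0.86 (95% interval -1.41 to -0.31) and did not pass (limma adjusted p = 0.243; DESeq2 on the recovered reads passed it, adjusted p = 0.0327). Between the CD8a and CD11b DC groups it was 0.25 (95% interval -0.30 to 0.80, limma adjusted p = 0.737), so that neither direction was settled. In the authors' deposited table the adjusted p-values for the 3 comparisons of Klf2 were 0.000155, 0.0302 and 0.705.

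The Klf2 call between the CD103 and CD8a DC groups held in 11 of 12 other ways of processing, and the exception is given among the processing alternatives. That call was kept in only 2 of 8 fits that each left 1 library out, and calls over all genes changed there too. With all libraries 273 genes passed, against 42, 50 and 47 without CD103 DC replicates 1, 2 and 3. Without CD8a DC replicates 1, 2 and 3 there were 138, 290 and 480. How much of a lost call comes from the smaller number of libraries was not tested. The limma adjusted p for Klf2 was 0.162, 0.0684 and 0.131 without replicates 1, 2 and 3 of the CD103 DC group. It was 0.116 without CD8a DC replicate 1 and 0.0358 without the outlying CD8a DC replicate 2. Leaving out CD11b DC replicate 2 or 3 also ended the call, while the log2 fold change stayed at -1.11. The fold change itself stayed between -1.23 and -1.01 (log2) in all 8.

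Klf3 (ENSMUSG00000029178) lies on chromosome 5, 64803388 to 64832901, plus strand. It was graded otherwise than Klf2, with the highest values in the CD11b DC group. Normalized counts were 1423.5, 1060.3 and 1297.6 with CD103+ DC, 1938.9, 1992.1 and 1346.9 with CD8a+ DC, and 2677.9 and 2716.8 with CD11b+ DC. Both CD11b DC libraries were above all other libraries, and CD8a DC replicate 3 lay among the CD103 DC libraries. Klf3 was 2.15-fold lower in the CD103 DC group (1260.5 ± 184.43, SD, n = 3) than in the CD11b DC group (2697.4 ± 27.5, n = 2), with a log2 fold change of -1.11 (SE 0.19, 95% interval -1.52 to -0.70, limma adjusted p = 0.0228). The CD8a DC group (1759.3 ± 358.14, n = 3) lay between. Its differences from the CD103 DC group (log2 fold change of CD103 DC over CD8a DC -0.47, 95% interval -0.84 to -0.10, limma adjusted p = 0.238) and from the CD11b DC group (CD8a DC over CD11b DC -0.64, 95% interval -1.05 to -0.23, limma adjusted p = 0.122) did not pass; DESeq2 passed the second for Klf3 (adjusted p = 0.0363).

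The Klf3 difference between the CD103 and CD11b DC groups passed under all 12 other settings with every library kept. Leaving out 1 library ended the call in 5 of 8 fits, with the log2 fold change between -1.20 and -0.99. The limma adjusted p for Klf3 was 0.0806, 0.172 and 0.0966 without CD103 DC replicates 1, 2 and 3. In these fits 5, 2 and 2 of all genes passed, against 63 with every library kept. The call was also lost without CD11b DC replicate 2 or 3. Without CD8a DC replicate 3, Klf3 passed against the CD8a DC group as well (log2 fold change -0.65, limma adjusted p = 0.0379). Of the 11243 exon bases of Klf3, 404 also lie in exons of the opposite-strand gene Gm20033; the strand setting of the counting is not given in the sources used here, so reads there could be of either gene.

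Klf6 (chromosome 13, 5861482 to 5870394, plus strand) and Klf13 (chromosome 7, 63886351 to 63938915, minus strand) did not separate the groups. Klf6 (ENSMUSG00000000078) had normalized counts of 4076.0, 2787.5 and 2885.1 with CD103+ DC, 2951.7, 3076.5 and 3322.4 with CD8a+ DC, and 3617.8 and 2847.6 with CD11b+ DC. Klf13 (ENSMUSG00000052040) had 3915.2, 3314.4 and 3860.2, then 3071.3, 4041.3 and 3091.5, then 3596.3 and 4468.7 in the same order. The libraries of every pair of groups overlapped for both genes. The 95% interval of the CD103 DC against CD8a DC log2 fold change was -0.29 to 0.37 for Klf6 and -0.17 to 0.43 for Klf13. These intervals leave out a change of the size seen for Klf2 but not small ones.

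Levels per length of exon (all annotated exons of a gene joined) give only a rough order of the factors. A gene whose annotated exons are not all used looks lower by this measure. Klf3 has 11243 such bases and Klf2 has 1847. In the CD103 DC group, normalized counts per kb of exon were 740 for Klf6, 490.9 for Klf13, 150 for Klf2 and 112.1 for Klf3. In the CD8a DC group they were 709.8 for Klf6, 451.6 for Klf13, 322.1 for Klf2 and 156.5 for Klf3. By this measure Klf6 was the highest of the 4 and Klf13 the next in both groups. Klf2 was above Klf3 in all 3 libraries of the CD103 DC group, though narrowly in replicate 1 (129.2 and 126.6). It was also above Klf3 in all 3 of the CD8a DC group. In the CD11b DC group (274.2 and 239.9) the libraries of the pair overlapped.

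**Figure D2:**
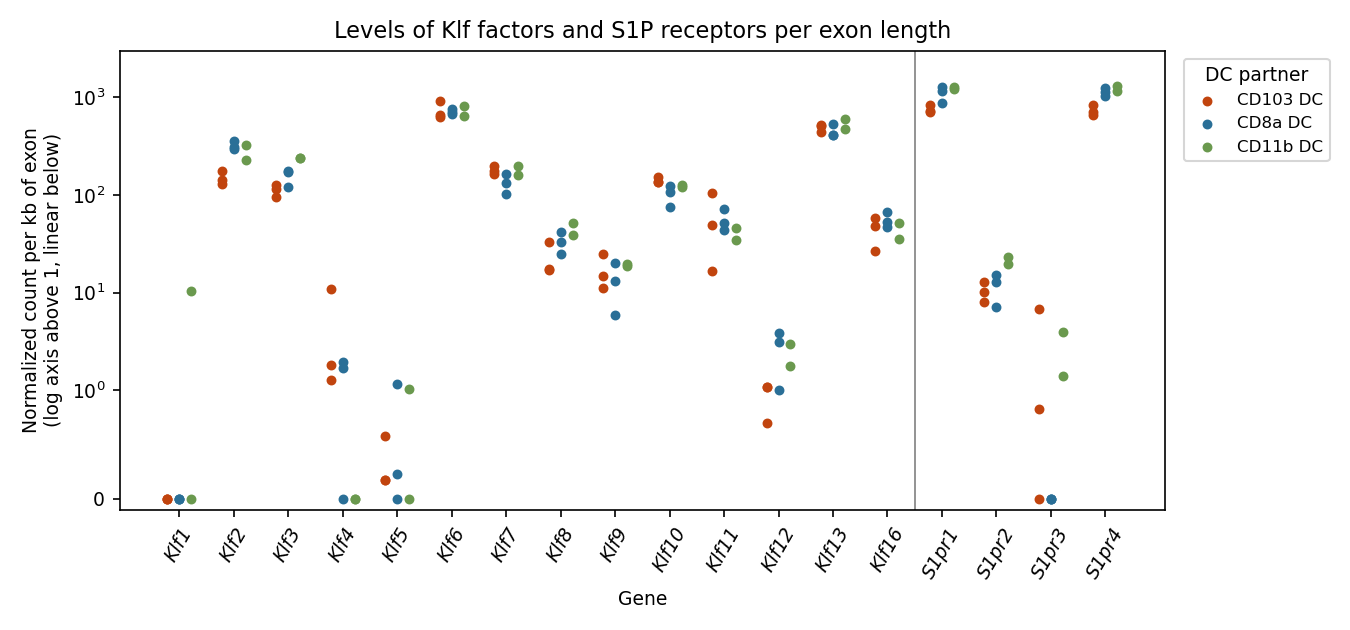
Normalized count per kb of exon (log axis above 1, linear below) for the Klf genes and S1P receptors with reads; points are libraries, coloured by DC partner. Klf6 and Klf13 are the highest Klf genes, and S1pr1 and S1pr4 lie far above S1pr2, which stays at 10.41 to 21.57 in the group means; several low genes lie at or near 0.

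The rest of the family gave no further call. Of 13 other Klf genes, 10 were tested and 0 passed in any comparison (median log2 fold change -0.0189 between the CD103 and CD8a DC groups, against 0.0197 for all genes); Klf14, Klf15 and Klf17 were listed at 0. Klf7 and Klf10, which is induced by TGF-beta, were the most abundant of them. The per-kb level of Klf7 was 179.7, 134 and 179.5 in the CD103 DC, CD8a and CD11b DC groups, and that of Klf10 was 140.9, 102.1 and 124.2. The related Sp factors, which bind GC boxes, had 5 of 9 genes tested and 0 that passed in any comparison.

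S1pr1 (ENSMUSG00000045092) lies on chromosome 3, 115710433 to 115715072, minus strand. The exit receptor had normalized counts of 2559.8, 2207.4 and 2169.2 with CD103+ DC, 3890.7, 3514.5 and 2639.8 with CD8a+ DC, and 3678.7 and 3853.2 with CD11b+ DC. The CD103 DC libraries were the lowest, though CD8a DC replicate 3 came close to CD103 DC replicate 1. Group means were 2312.1 ± 215.33 (SD, n = 3), 3348.3 ± 641.79 (n = 3) and 3765.9 ± 123.39 (n = 2). The log2 fold change of the CD103 DC group was -0.52 against the CD8a DC group (SE 0.15, 95% interval -0.83 to -0.21, limma adjusted p = 0.117) and -0.71 against the CD11b DC group (SE 0.16, 95% interval -1.06 to -0.36, limma adjusted p = 0.0984). Neither passed. DESeq2 on the recovered reads passed both for S1pr1 (adjusted p = 0.0197 and 0.00623), limma with only the groups compared in the fit passed the second (adjusted p = 0.00804), and without CD8a DC replicate 3 limma passed both (adjusted p = 0.0105 and 0.0125, log2 fold changes -0.68 and -0.71). In the authors' deposited table the adjusted p-values were 0.0191 and 0.00585. The CD8a and CD11b DC groups differed by -0.19 (log2, 95% interval -0.54 to 0.16).

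S1pr4 (ENSMUSG00000044199), a second S1P receptor of lymphocytes, lies on chromosome 10, 81497747 to 81500132, minus strand. Its normalized counts were 1996.6, 1675.9 and 1567.0 with CD103+ DC, 2957.6, 2473.5 and 2721.2 with CD8a+ DC, and 3097.2 and 2741.0 with CD11b+ DC. The highest CD103 DC library lay below the lowest of the rest, and the other 2 groups overlapped. S1pr4 was 1.56-fold lower in the CD103 DC group (1746.5 ± 223.33, SD, n = 3) than in the CD8a DC group (2717.4 ± 242.07, n = 3), a log2 fold change of -0.64 (SE 0.14, 95% interval -0.93 to -0.35, limma adjusted p = 0.0339). Against the CD11b DC group (2919.1 ± 251.87, n = 2) the log2 fold change was of like size, -0.75 (SE 0.15, 95% interval -1.07 to -0.42), and did not pass (limma adjusted p = 0.0598). The CD8a DC over CD11b DC value was -0.10 (95% interval -0.43 to 0.22, limma adjusted p = 0.829).

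S1pr4 kept its call against the CD8a DC group in 8 of 12 other settings and in 2 of 8 fits without 1 library. The limma adjusted p for S1pr4 in that comparison was 0.0718, 0.14 and 0.172 without CD103 DC replicates 1, 2 and 3. It was 0.125 without CD8a DC replicate 1. The counts of all genes called in these fits are given above for Klf2. The S1pr4 call was also lost without CD11b DC replicate 2 or 3, at an unchanged log2 fold change of -0.64. The 4 settings that lost it were no filter on low genes (0.0529), library size scaling (0.0534), a fit of only the groups compared (0.0582) and a correction for length and GC content (0.0979). Against the CD11b DC group, S1pr4 passed in 4 of the 12, which include DESeq2 (adjusted p = 0.00055) and limma-voom (0.0337), and also without CD8a DC replicate 2 (limma adjusted p = 0.0355) or 3 (0.0237). In the authors' deposited table the adjusted p-values were 0.000503 and 0.000499. Per kb of exon, S1pr1 and S1pr4 were nearly equal in each group, at 759.1 and 732 with CD103+ DC, 1099 and 1139 with CD8a+ DC, and 1236 and 1223 with CD11b+ DC.

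Ccr7 (ENSMUSG00000037944) lies on chromosome 11, 99144196 to 99155077, minus strand, and was the most abundant of the 7 per length, at 2829, 3137 and 3129 normalized counts per kb in the CD103 DC, CD8a and CD11b DC groups. Its normalized counts were 5230.2, 5606.8 and 5951.1 with CD103+ DC, 6456.7, 7828.6 and 4331.5 with CD8a+ DC, and 6347.6 and 6029.3 with CD11b+ DC. The CD8a DC group alone spanned both extremes, and the CD103 DC libraries lay just under the CD11b DC pair. The log2 fold changes were -0.11 (95% interval -0.47 to 0.25), -0.15 (-0.55 to 0.25) and -0.04 (-0.44 to 0.36) for CD103 DC over CD8a DC, CD103 DC over CD11b DC and CD8a DC over CD11b DC. None passed (limma adjusted p = 0.841, 0.878 and 0.966). Mature DC also express Ccr7, and the DC marker sums above differed between the same groups; their part in the Ccr7 level was not tested. The CCR7 ligands Ccl19, Ccl21a, Ccl21b and Ccl21c, with 2, 2, 3 and 1 entries, were listed at 0 in every library. As given below for S1pr5, a 0 in this table gives no limit on expression.

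**Figure D3:**
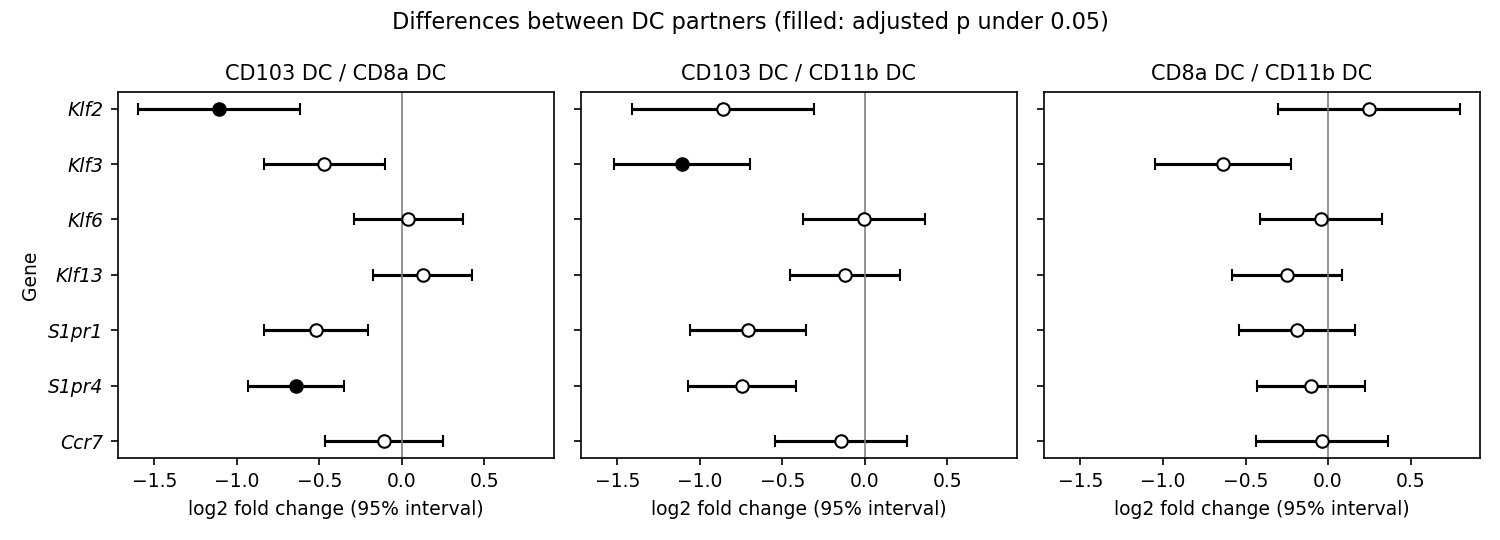
Log2 fold change of each gene (points, filled where the adjusted p was under 0.05) with its 95% interval (bars), 1 panel for each pair of groups. Filled points are Klf2 and S1pr4 in the CD103 DC over CD8a DC panel and Klf3 in the CD103 DC over CD11b DC panel; the intervals of S1pr1 lie wholly below 0 in both panels without passing the adjusted threshold.

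Counted together, 2 of the 7 genes fell in the CD103 DC group against the CD8a DC group and none rose; 1.44% of all genes passed there, 0.548% as lower. Against the CD11b DC group 1 of 7 fell (0.332% of all genes passed, 0.200% as lower). Between the CD8a and CD11b DC groups 0 of 7 passed in limma (1.97% of all genes did, 0.901% as lower), 1 had an unadjusted p under 0.05, near the 13.6% of all genes that did, and DESeq2 called 1, in both cases Klf3. At an unadjusted p under 0.05 the first 2 comparisons each held the same 4 genes, Klf2, Klf3, S1pr1 and S1pr4, where 13.2% and 9.32% of all genes did. Without overlap between libraries, 3 of 7 were lower in the CD103 DC group than in the CD8a DC group (7.72% of all genes), 5 of 7 lower than in the CD11b DC group (14.2%), and 1 of 7 lower in the CD8a DC than in the CD11b DC group (15.1%). The median log2 fold change of the 7 was -0.47, -0.71 and -0.10 in the 3 comparisons, beside 0.02, -0.0022 and -0.04 for all genes tested. The first 2 comparisons share the CD103 DC libraries and are not independent of each other. The 7 genes were also chosen with earlier results of these data known. Setting them beside all genes is therefore a description and not a test of the set. Without CD8a DC replicate 2 the counts were 2, 2 and 0; without CD8a DC replicate 3 they were 4, 3 and 0; without CD8a DC replicate 1 they were 0, 1 and 0. Leaving out any 1 of the CD103 DC libraries brought the count to 0 in both comparisons with the CD103 DC group. In these fits 42 to 50 of all genes passed against the CD8a DC group, and 2 to 5 against the CD11b DC group. With all libraries 273 and 63 passed. The members' calls there were also lost without a CD11b DC library.

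Beyond the receptors, the S1P pathway showed no passing gene. Of 21 listed genes for other S1P receptors and for making, moving and breaking down S1P, 19 were tested and 0 passed in any comparison (medians 0.111, -0.0243 and -0.309, log2). S1pr2, which opposes migration, had normalized counts of 81.9, 64.5 and 102.5 with CD103+ DC, 121.9, 56.2 and 101.7 with CD8a+ DC, and 185.5 and 158.3 with CD11b+ DC. Both CD11b DC libraries were the highest (CD103 DC over CD11b DC log2 fold change -1.06, limma adjusted p = 0.511). S1pr5, an exit receptor of natural killer and some effector T cells, was listed at 0 in every library. In the same table mt-Co2, mt-Co3, mt-Atp6, mt-Atp8 and mt-Nd4l, which all cells use, were also listed at 0 throughout, so a 0 there gives no limit on expression. Sgpp1, an S1P phosphatase, had 2124.8, 2093.4 and 2125.4 normalized counts with CD103+ DC, 3056.0, 2777.3 and 2411.9 with CD8a+ DC, and 2588.3 and 2355.2 with CD11b+ DC, and did not pass (limma adjusted p = 0.203 between the CD103 and CD8a DC groups).

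Of 24 tested genes for coupling and desensitizing these receptors, 1 rose and none fell in the CD103 DC group against the CD8a DC group. Of all genes, 1.44% passed there in either direction. In the other comparisons, where 0.332% and 1.97% of all genes passed, 0 of the list did (medians -0.0881, -0.104 and -0.0173). The gene was Cd69, whose protein takes S1PR1 off the membrane. Cd69 had normalized counts of 596.8, 685.7 and 786.8 with CD103+ DC, 260.2, 256.6 and 288.9 with CD8a+ DC, and 276.8 and 409.9 with CD11b+ DC. All CD103 DC libraries were above all others, the opposite order to S1pr1 and S1pr4. Cd69 was 2.55-fold higher in the CD103 DC group than in the CD8a DC group (log2 fold change 1.35, limma adjusted p = 0.0110) and its log2 fold change over the CD11b DC group was 1.02 (limma adjusted p = 0.144). The latter passed for Cd69 with DESeq2 (adjusted p = 0.00603) and with only the groups compared in the fit (limma adjusted p = 0.0422), and its adjusted p in the authors' deposited table was 0.00569. The Cd69 call against the CD8a DC group held without any 1 of the CD8a DC libraries. It was lost without any 1 of the CD103 DC libraries (limma adjusted p 0.0575 to 0.092). In these fits 42 to 50 of all genes passed, against 273 with all libraries. Without a CD11b DC library the call was also lost, with the log2 fold change still at 1.35. Other activated leukocytes also express Cd69, and the DC and CD4 marker sums were higher in the CD103 DC group than in the CD8a DC group; their part was not tested.

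Upstream of Klf2, the Foxo and MEF2 list held 19 genes, of which 0 passed in limma in either comparison with the CD103 DC group (medians 0.0349 and -0.163). Of all genes, 1.44% and 0.332% passed there, so 0 of 19 is near that share. Foxo1, the activator of Klf2 and S1pr1, had normalized counts of 11698.4, 9238.8 and 9477.6 with CD103+ DC, 11408.2, 11298.7 and 8701.7 with CD8a+ DC, and 11443.7 and 11609.1 with CD11b+ DC. Its groups overlapped, with log2 fold changes of -0.04 (limma adjusted p = 0.925), -0.19 (0.749) and -0.15 (0.702).

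Genes of naive and circulating T cells did not move as 1 block. Of 20 tested, 3 fell in the CD103 DC group against the CD8a DC group (Itga6, Ccr9 and Txk). Against the CD11b DC group 2 fell (Itgb7 and Ccr9), and 1 fell in the CD8a DC group against the CD11b DC group (Il7r). Of all genes, 0.548%, 0.200% and 0.901% passed as lower in these comparisons. The medians of the list were -0.0942, -0.315 and -0.0991. The list was drawn up with earlier results of these data known.

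Il7r, the interleukin 7 receptor chain and a FOXO1 target, had 3424.0, 2966.9 and 3220.7 normalized counts with CD103+ DC, 2720.8, 1876.9 and 2351.9 with CD8a+ DC, and 3606.1 and 4288.4 with CD11b+ DC. It was lowest with CD8a+ DC, the group with the highest mean of Klf2. Il7r fell in the CD8a DC group against the CD11b DC group (log2 fold change -0.78, limma adjusted p = 0.0233). That call was lost without CD103 DC replicate 1 or 2 (limma adjusted p = 0.0588 and 0.0501). There 222 and 227 of all genes passed, against 374 with all libraries. The call was also lost with only the groups compared in the fit (limma adjusted p = 0.112). Without CD11b DC replicate 2 or 3 it was lost with log2 fold changes of -0.90 and -0.65. Ccr9, a gut homing receptor that responds to CCL25, had the widest difference of the list, at 135.1, 126.1 and 244.2 against 1821.7, 2008.4 and 787.4 and against 1303.6 and 730.9. Its log2 fold change was -3.14 against the CD8a DC group (limma adjusted p = 0.00127) and -2.59 against the CD11b DC group (limma adjusted p = 0.0129). The first Ccr9 call was lost only without CD11b DC replicate 2 or 3, where the log2 fold change stayed at -3.14. The second was lost without any 1 of the CD103 DC libraries (limma adjusted p 0.0553 to 0.103). In these fits 2 to 5 of all genes passed, against 63 with all libraries. It was also lost without a CD11b DC library and with limma-voom (limma-voom adjusted p = 0.0527).

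The other 3 that passed code for 2 integrin chains and a kinase. Itga6, the integrin alpha 6 chain, had 923.3, 893.0 and 1094.4 normalized counts with CD103+ DC, 2044.4, 1831.6 and 1683.6 with CD8a+ DC, and 1233.7 and 1277.1 with CD11b+ DC, so that all 3 groups were apart. Its log2 fold change was -0.93 against the CD8a DC group (limma adjusted p = 0.00772). That call was lost without CD103 DC replicate 1 or 2 (limma adjusted p = 0.0641 and 0.057), where 42 and 50 of all genes passed. It was also lost without CD11b DC replicate 2 or 3, at the same log2 fold change. Itgb7, the beta 7 chain of gut-homing and CD103 integrins, was lowest with CD103+ DC (2843.0, 2809.0 and 3112.6), next with CD8a+ DC (4101.7, 4044.0 and 3150.5) and highest with CD11b+ DC (4755.6 and 4820.4). Itgb7 passed only against the CD11b DC group (log2 fold change -0.71, limma adjusted p = 0.0488). That call sat at the threshold, was lost in 4 of 12 other settings, and held only without CD8a DC replicate 2 or 3. Its limma adjusted p was 0.0661 without CD8a DC replicate 1, where 53 of all genes passed. Without a CD103 DC library it was 0.14 to 0.226, where 2 to 5 of all genes passed. Without CD8a DC replicate 3, Itgb7 passed against the CD8a DC group too (adjusted p = 0.0314). Txk, a Tec family kinase of T cells, had 1365.3, 1045.3 and 991.9, then 2226.1, 1653.9 and 1866.7, then 1752.4 and 1931.0. The log2 fold change of Txk against the CD8a DC group was -0.76 (limma adjusted p = 0.0377). That call was lost in 3 of 12 other settings and held only without CD8a DC replicate 2 or 3. Its limma adjusted p was 0.144 without CD8a DC replicate 1, where 138 of all genes passed. Without a CD103 DC library it was up to 0.183, where 42 to 50 of all genes passed. Other settings also passed differences that limma did not. DESeq2 passed Il7r as higher in the CD103 DC than in the CD8a DC group (adjusted p = 0.0497), Itga6 as higher in the CD8a DC than in the CD11b DC group (0.014) and Txk as lower in the CD103 DC than in the CD11b DC group (0.0197); limma with only the groups compared passed the last too (0.0455).

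**Figure D4:**
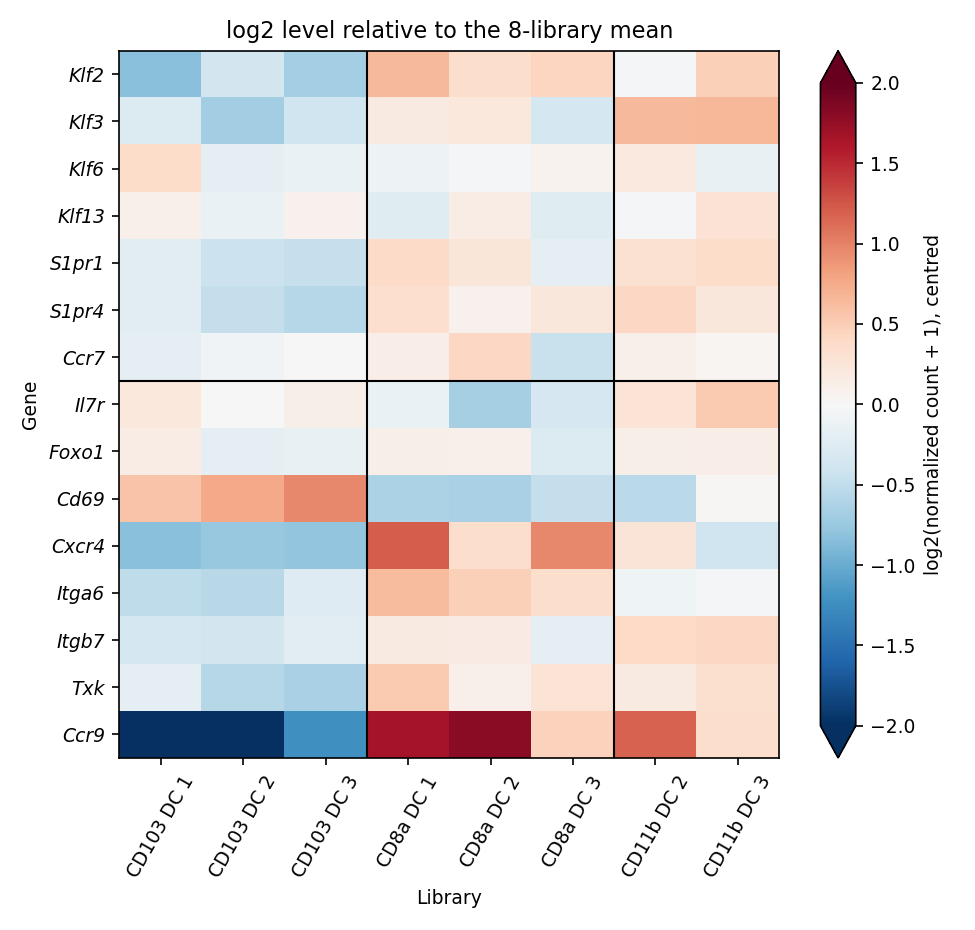
Log2(normalized count + 1) of each gene minus its mean over the 8 libraries (colour; values beyond 2 in size share the end colour), for the 7 members above the horizontal line and the 8 list genes named in the text below it; columns are libraries, divided by DC partner. The CD103 DC columns are blue for Klf2, S1pr1, S1pr4, Cxcr4 and Ccr9 and red for Cd69, and Il7r is blue in the CD8a DC columns.

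Genes reported as raised when Klf2 is lost did not pass. Of 10, 9 were tested and 0 passed in any of the 3 comparisons in limma (medians 0.181, -0.158 and -0.572). Of all genes, 1.44%, 0.332% and 1.97% passed there, so 0 of 9 is near that share. Cxcr3, the best known of them, had 1932.5, 2031.8 and 1787.9 normalized counts with CD103+ DC, 1425.4, 1732.7 and 1200.4 with CD8a+ DC, and 2006.0 and 2276.1 with CD11b+ DC. Of 7 tested other chemokine receptors of lymphoid tissue, 1 fell in the CD103 DC group against the CD8a DC group, where 0.548% of all genes did. It was Cxcr4, the receptor for CXCL12. In the other 2 comparisons, where 0.332% and 1.97% of all genes passed, 0 of this list did (medians -0.362, -0.31 and -0.44). Cxcr4 had 413.3, 436.2 and 428.8 normalized counts with CD103+ DC, 1704.4, 938.5 and 1445.5 with CD8a+ DC, and 882.5 and 562.7 with CD11b+ DC, and its CD103 DC libraries were the lowest. Cxcr4 was 3.10-fold lower in the CD103 DC group than in the CD8a DC group (log2 fold change -1.63, limma adjusted p = 0.00516). That call was lost without CD103 DC replicate 1 (limma adjusted p = 0.0512), where 42 of all genes passed against 273 with all libraries. It was also lost without CD11b DC replicate 2 or 3, at the same log2 fold change. Without CD8a DC replicate 2, Cxcr4 passed as higher in the CD8a DC than in the CD11b DC group (limma adjusted p = 0.0179). With DESeq2 it passed there too (adjusted p = 0.0166).

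The genes most like each member over the 8 libraries were found among 9059 genes with a mean of at least 5 CPM (a gene's reads scaled to a common library total), by the root mean square difference of log2(CPM + 1) profiles centred on their own means; this is a description of 8 libraries. Nearest to S1pr1 were Pea15a (0.0443), Mtmr1 (0.0536), Trpc4ap (0.104), Selplg (0.116), which codes for the selectin ligand PSGL-1, and Myb (0.117). Nearest to Klf2 were Lcn4 (0.154), Crip1 (0.162), Plxna1 (0.172), Il10ra (0.201), a chain of the interleukin 10 receptor, and Slc8b1 (0.206), so that no gene followed Klf2 as closely as Pea15a followed S1pr1. Klf3 was nearest to Rnf138 (0.134), Unc93b1 (0.145), Acp5 (0.145), Smap2 (0.146) and Pitpnc1 (0.174). Ccr7 was nearest to Sesn1 (0.0699), Stat4 (0.0848), Man1a (0.0865), Zfp984 (0.0887) and Rnaset2a (0.0909). A profile that varies little gives small differences, and the members' own root mean square spread ran from 0.178 (Klf6) and 0.18 (Klf13) through 0.219 (Ccr7), 0.323 (S1pr1) and 0.339 (S1pr4) to 0.457 (Klf3) and 0.494 (Klf2).

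Among the members themselves, S1pr1 and S1pr4 were the closest pair, at 0.168, with 46 genes closer to S1pr1 than S1pr4 was. That count includes S1pr1 itself, and each count of closer genes below likewise includes the member it is measured from. Klf3 and S1pr1 were 0.206 apart, with 14 genes closer to Klf3. Klf2 was 0.308 from S1pr4 (89 genes closer to Klf2) and 0.335 from S1pr1 (160 genes closer), against a median of 0.566 from Klf2 to all compared genes. Klf2 and Ccr7 were 0.511 apart. These distances rest in part on the same differences between the groups as the fold changes above.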

How the data were processed

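RNA of 8 libraries was analysed. Per the submitters' processing notes, the tools were STAR 2.4.2a and DESeq2 and the build was GRCm38; which counter, annotation release and strand setting were used is not given in the sources used here. The authors deposited, per the file headers, normalized counts (a signal: each gene count divided by the size factor of its library) for 43432 genes, 759 without a symbol. Per the file headers, the authors also deposited variance-stabilized log2 values, which were not used, and, per pair of groups, the fold as a ratio and as log2, with raw and adjusted p-values, and the GC percent of each gene.

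Low values were whole multiples of 1 step per library, so reads were recovered (100% whole within 0.1 of a read). The main test was limma-trend (R 4.3.3, limma 3.58.1) on log2(normalized count + 1) for 18971 genes with a mean of at least 1, in 1 fit of 8 libraries with 3 group means and 5 residual degrees of freedom, with Benjamini-Hochberg adjustment; a pseudocount understates changes of low genes. Reads were tested with edgeR 4.0.16, DESeq2 1.42.0 and limma-voom as alternatives. Exon lengths are unions of GENCODE M21 exons (GRCm38). The steps were tested on simulated data. Replicates differed beyond sampling noise (lowest chi-square per degree of freedom 19.26). Each library was counted as its own sample. The excess over sampling noise cannot show that they are independent, since technical spread would also give it. Members, gene lists and alternatives were chosen with earlier results of these data known, and the length and GC correction was added after the data were seen. Named beside the members are list genes that passed in any comparison, up to 6 per list, Il7r, Foxo1, Cd69 and S1pr5 always, and the 5 genes nearest in profile to Klf2, S1pr1, Klf3 and Ccr7; Klf7, Klf10, S1pr2, Sgpp1 and Cxcr3 were added after their values were seen. Some genes that this rule names are not reported here.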

Additional observations from a re-analysis of the deposited data

How the results depend on the processing

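Over 420 refits of the 7 genes (20 alternatives in each of 3 comparisons), 370 kept direction and side of the threshold, 22 lost the call, 14 gained it and 14 changed sign, the last for genes that passed in no fit of that comparison. The number of genes called between the CD103 and CD8a DC groups was 159 with no filter, 843 with DESeq2 and 181 both with only the groups compared and with the replicate block, against 273. Between the CD103 and CD11b DC groups DESeq2 gave 364 and only the groups compared gave 340, against 63. Between the CD8a and CD11b DC groups these gave 948 and 81, against 374. Members called between the CD103 and CD8a DC groups were 1, not 2, with no filter, library size scaling, only the groups compared, the replicate block and the length and GC correction. Between the CD103 and CD11b DC groups they were 2, not 1, with a mean of at least 10 and with voom, 3 with only the groups compared and 4 with DESeq2; between the CD8a and CD11b DC groups DESeq2 called 1, not 0.

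Without 1 library at a time, genes called ranged from 3 to 480, 0 to 238 and 0 to 537 in the 3 comparisons (limma; the fits with 0 held 1200, and 1689 and 1810, genes with an unadjusted p under 0.05) and members called from 0 to 4, 0 to 3 and 0 to 0. Where this left a CD11b DC library alone, it was assumed to vary like the other groups. Small log2 fold changes changed sign: Ccr7 between the CD8a and CD11b DC groups with edgeR (0.0004) and DESeq2 (0.004), Klf6 between the CD103 and CD11b DC groups with library size scaling (0.003), edgeR (0.0006) and DESeq2 (0.0072), Foxo1 between the CD103 and CD8a DC groups with library size scaling (0.0138), and Txk between the CD8a and CD11b DC groups with library size scaling (-0.0026) and the replicate block (-0.0797). Without 1 library, values ran from -0.3473 to 0.0795 for Ccr7 in CD103 DC over CD8a DC, -0.23 to 0.20 for Ccr7 in CD8a DC over CD11b DC, -0.1715 to 0.0238 for Foxo1 in CD103 DC over CD8a DC, -0.2776 to 0.0356 for Klf13 in CD103 DC over CD11b DC, -0.002 to 0.50 for Klf2 in CD8a DC over CD11b DC, -0.0661 to 0.1481 for Txk in CD8a DC over CD11b DC, and -0.13 to 0.14, -0.18 to 0.17 and -0.22 to 0.13 for Klf6 in the 3 comparisons. The cause of these changes was not tested.

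Library size scaling shifted the split of calls in CD103 DC over CD8a DC to 210 higher and 74 lower, from 169 and 104. In CD8a DC over CD11b DC the split moved to 166 and 215, from 203 and 171. The scaling itself added about 0.06, 0.01 and -0.05 to the log2 fold changes of the 3 comparisons. Deviations from the group means had correlations of -0.0309 to 0.0227 between libraries with the same replicate number. With so few libraries per group, whose deviations mirror each other, this cannot decide whether the numbers pair them. With the replicate block the limma adjusted p of Klf2 in CD103 DC over CD8a DC was 0.0609. The number of libraries, 2 or 3 per group, limits what could pass; the 95% intervals of the members' fold changes show the range that these libraries leave.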
